A study of Homo sapiens with 10 samples.

Results

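The 36 genes described here encode proteins that license, start and carry out DNA replication in S phase, or that set its timing. They were taken by symbol from a table of 25538 genes, and all 36 had a row and passed the expression filter that left 19433 genes for testing. The RNA came from A549, a line derived from a human lung adenocarcinoma, after transfection with a vector for a fusion of EP300 (p300, a histone acetyltransferase and coactivator) with GFP, or for GFP alone. At 48 h after transfection with 1 microgram of vector, in medium with hormone-stripped serum, the cells received 100 nM dexamethasone (Dex), a synthetic glucocorticoid, or ethanol (EtOH), its vehicle, for 1 h, and were fixed and sorted for GFP. There were 2 P300 Dex, 2 P300 EtOH, 3 GFP Dex and 3 GFP EtOH libraries, with replicate numbers 1 and 2 in the P300 groups and 1 to 3 in the GFP groups. The transfection is transient, the endogenous EP300 gene is present in all groups, and the promoter of the vectors is not given in the sources used here. The question the design addresses is how excess EP300 alters gene expression and the early response to glucocorticoid.

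Replication starts from origins that ORC, CDC6 and CDT1 load with the MCM2-7 helicase in G1. The helicase becomes active in S phase when CDC45 and the GINS complex join it, and polymerase alpha with primase, the RFC clamp loader, the PCNA clamp and the replicative polymerases then copy the strands. Most of these genes are transcribed at the G1/S boundary under E2F transcription factors and their repressor RB1, and EP300 is a known coactivator of E2F proteins. In a culture of unsynchronised cells, their level in bulk RNA therefore moves with the share of cells near S phase. In bulk samples, fewer cells in S phase and less RNA per cell cannot be told apart.

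Promoter windows from RefSeq (build GRCh38.p14, 250 bases before and 50 after the start, 300 in all) were found for 33 of the 36 genes; MCM4, MCM5 and CCNE2 had none in the table used. The following stretches run from 160 bases before the start through its first 30 bases, 5′ to 3′ on the strand of the gene. They show the pattern of matches in MCM6 and PCNA, which did not pass the test of P300 against GFP, and in GINS3, EXO1, MCM10 and RRM2, which did. Capitals mark matches, on either strand, to an E2F motif (TTTCCCGC, TTTGGCGC, TTTCGCGC or TTTGCCGC), a CCAAT box (CCAAT, bound by NF-Y) or a cAMP response element (TGACGTCA, bound by CREB and ATF factors). They lie at chr2:135876414-135876603 on the minus strand for MCM6, chr20:5126593-5126782 on the minus strand for PCNA, chr16:58392311-58392500 on the plus strand for GINS3, chr1:241848044-241848233 on the plus strand for EXO1, chr10:13161398-13161587 on the plus strand for MCM10 and chr2:10122579-10122768 on the plus strand for RRM2.
MCM6: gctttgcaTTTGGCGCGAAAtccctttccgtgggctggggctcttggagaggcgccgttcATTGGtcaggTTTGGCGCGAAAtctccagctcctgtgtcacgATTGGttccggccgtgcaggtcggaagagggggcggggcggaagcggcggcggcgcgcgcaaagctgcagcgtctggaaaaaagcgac
PCNA: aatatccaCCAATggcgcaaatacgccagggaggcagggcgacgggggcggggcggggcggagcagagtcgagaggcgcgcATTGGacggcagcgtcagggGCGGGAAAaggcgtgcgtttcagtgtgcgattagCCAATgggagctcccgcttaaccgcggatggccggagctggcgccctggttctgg
GINS3: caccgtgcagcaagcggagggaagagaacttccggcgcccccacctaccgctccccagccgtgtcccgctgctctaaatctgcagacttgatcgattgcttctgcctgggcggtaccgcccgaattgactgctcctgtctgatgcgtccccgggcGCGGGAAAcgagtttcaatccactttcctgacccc
EXO1: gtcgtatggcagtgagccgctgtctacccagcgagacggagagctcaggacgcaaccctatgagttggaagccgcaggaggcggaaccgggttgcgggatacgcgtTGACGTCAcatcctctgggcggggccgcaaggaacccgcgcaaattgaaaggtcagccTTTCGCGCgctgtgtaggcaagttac
MCM10: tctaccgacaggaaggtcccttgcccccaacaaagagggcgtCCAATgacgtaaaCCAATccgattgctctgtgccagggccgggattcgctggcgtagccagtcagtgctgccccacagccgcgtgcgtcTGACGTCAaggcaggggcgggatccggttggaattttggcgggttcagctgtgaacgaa
RRM2: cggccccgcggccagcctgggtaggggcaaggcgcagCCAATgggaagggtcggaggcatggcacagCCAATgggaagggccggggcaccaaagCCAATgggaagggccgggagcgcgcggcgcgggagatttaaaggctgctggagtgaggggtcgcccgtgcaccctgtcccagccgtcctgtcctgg

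MCM6 held 2 pairs of overlapping E2F matches on opposite strands and 2 CCAAT boxes. PCNA held 1 E2F match, 59 bases before the start, between CCAAT boxes. GINS3 held 1 E2F match that begins 5 bases before the start, and EXO1 held 1 that begins at base 5 of the transcript, with a cAMP response element 54 bases before the start. RRM2 had 3 CCAAT boxes in this stretch and MCM10 had 2, with a cAMP response element 29 bases before its start, and neither had an E2F match. An E2F match was present in 20 of the 33 genes (60.6%), against 3.99% of all 27305 genes with a window and 3.31% of all 35116 windows. CCAAT boxes were present in 18 of the 33 (54.5%), against 39.7% of all genes. The cAMP response element was present in 4 (12.1%), MCM10, RFC3, EXO1 and DTL, against 2.25% of all genes. TTTGAA, a cell cycle homology region of G2 and M phase promoters, was present in 1 (3.03%), RRM1, against 18.2%. A match describes these letters only, and overlapping matches of the 4 motifs were all kept.

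Total gene counts ran from 9215550 to 13122367 in 9 libraries. The P300 EtOH library of replicate 2 held 2278717, and 31.4% of the tested genes were at 0 in it, against 1.37% to 8.43% in the other libraries. At its depth 3 counts, taken as the floor of detection, correspond to 1.34 CPM (counts in a scaled library of 1000000, the unit of all levels here). In it 5 of the 36 genes, MCM6, GINS2, RFC4, POLE2 and CCNE2, were at 0, while no gene of the 36 had under 19 counts in any other library. Of 9479 genes that averaged at least 10 CPM in GFP libraries, 369 (3.89%) were at 0 in it, among them 3 of the 34 members at that level. In the other libraries 0% to 0.0316% were. MCM6, for one, had 28.4 to 56.2 CPM in GFP libraries. Why these genes were at 0 was not tested. Counts of EP300 made up 28.8% and 2.42% of P300 Dex libraries, 28.6% and 13.4% of P300 EtOH libraries, and 0.0271% to 0.0386% of GFP libraries. The common dispersion over all tested genes was 0.680 among P300 libraries and 0.0619 among GFP libraries. The main fit took a single spread per gene over all 10 libraries, so its standard errors do not carry this gap. Its p-values may be too small for differences that involve P300 cells and too large for Dex in GFP cells. Epithelial markers of A549 were present at 0.987% to 2.48% of counts in P300 libraries and 1.54% to 2.32% in GFP libraries. Of 12 markers of blood, endothelial and mesenchymal cells, 9 were in the table. Their sum held 0.00623% to 0.0109% of counts in P300 libraries and 0.00174% to 0.0035% in GFP libraries. Most of these counts were of COL1A1, with 1503 over the P300 libraries and 1525 over the GFP libraries. No other marker had more than 121 over either. All 7 markers that were tested had a positive log2 fold change over both treatments (median 1.70). Of these, 4 (57.1%) were called higher in P300 cells (VWF, COL1A1, COL1A2 and CDH5), against 6.33% of all tested genes. COL1A2 had 2 counts over the GFP libraries and 34 over the P300 libraries, so it passed the expression filter only through P300 libraries. PTPRC, which marks leukocytes, had 7 counts over the P300 libraries and 2 over the GFP libraries. The part of these differences in the results below was not tested.

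The summed share of the 36 genes was lower in P300 cells. With EP300 left out of the total, it was 0.154% and 0.233% of counts in the P300 Dex libraries of replicates 1 and 2, and 0.169% and 0.140% in the P300 EtOH libraries. In GFP Dex libraries it was 0.244%, 0.257% and 0.301%, and in GFP EtOH libraries 0.218%, 0.238% and 0.262%. The mean was 0.174% ± 0.041 over P300 libraries (SD, n = 4) and 0.253% ± 0.028 over GFP libraries (SD, n = 6). Among P300 libraries, Dex replicate 2 held the smallest share of EP300 counts. EtOH replicate 2 held the next smallest, 13.4%, and had the lowest share of the 36 genes. A relation between these shares was not tested. The share of the 36 genes in P300 Dex replicate 2 lay inside the range of the GFP libraries, and the other P300 libraries lay below all of them. The 95% Clopper-Pearson intervals, which cover counting error only, were narrow beside these differences, at 0.135% to 0.146% in the shallowest library and 0.230% to 0.236% in P300 Dex replicate 2. By role, levels were summed in CPM, whose scaled totals include EP300, unlike the shares above. The level of P300 cells was 0.515 times that of GFP cells for nucleotide supply and 0.611 times for the clamp and clamp loader. The G1/S regulators, at 1.02 times, were the group with the least difference.

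**Figure D1:**
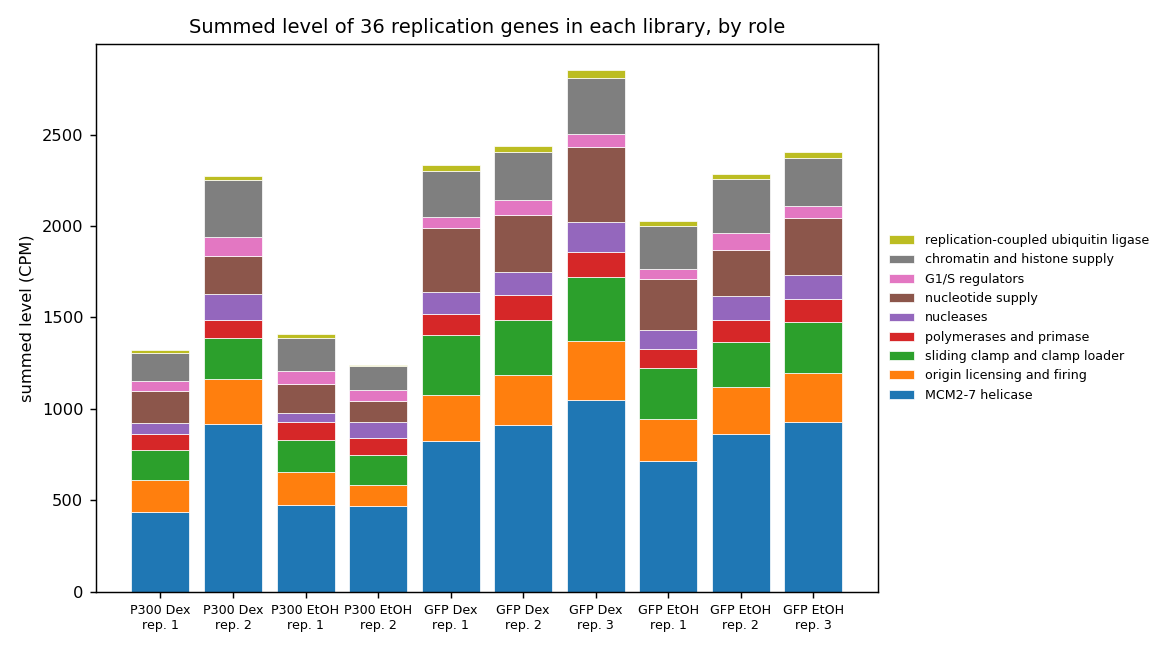
Summed level of the 36 genes (CPM, TMM-scaled) in each of the 10 libraries, stacked by role; each bar is 1 library. Bars of P300 Dex replicate 1 and of both P300 EtOH libraries are shorter than any GFP bar, and P300 Dex replicate 2 is at the height of the GFP bars.

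Over both treatments, 6 of the 36 genes fell in P300 cells relative to GFP cells and none rose (edgeR quasi-likelihood test on all 10 libraries, Benjamini-Hochberg adjusted over 19433 genes, threshold 0.05). The 6 were RRM2, GINS3, MCM4, RFC5, EXO1 and MCM10, with levels in P300 cells at 41.3% to 53.6% of those in GFP cells. Among all tested genes 10.5% were called, 4.17% as lower and 6.33% as higher, and of those at the members' levels 4.15% were called lower. Of the 36 genes, 34 had a negative log2 fold change, with a median of -0.63 against -0.15 for all tested genes and -0.23 for the 10604 tested genes within the range of the members' levels in GFP cells. All 4 P300 libraries lay below all 6 GFP libraries for 10 of the 36 (27.8%), MCM4, MCM10, GINS1, GINS3, PCNA, RFC2, RFC4, RFC5, RRM2 and DTL, against 5.84% of all tested genes and 7.38% of those at the members' levels. For none of the 36 did all P300 libraries lie above, against 4.27% of all tested genes. In a fit blocked by replicate number, 3 of the 6 passed (MCM4, RFC5 and RRM2), and 2.87% of all tested genes were lower. When single libraries were left out, the count became 16 (EtOH 1 of P300 omitted), 8 (EtOH 2 of P300, the shallow library), 20 (Dex 2 of P300), 2 (Dex 2 of GFP) or 3 (EtOH 2 of GFP), while 15.3%, 7.27%, 12.5%, 0.731% and 1.31% of all tested genes were called lower. No member passed once Dex 1 of P300 was omitted (0.902% of all tested genes lower), nor once number 1 or 3 of either GFP group was (0.171% to 0.218%).

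**Figure D2:**
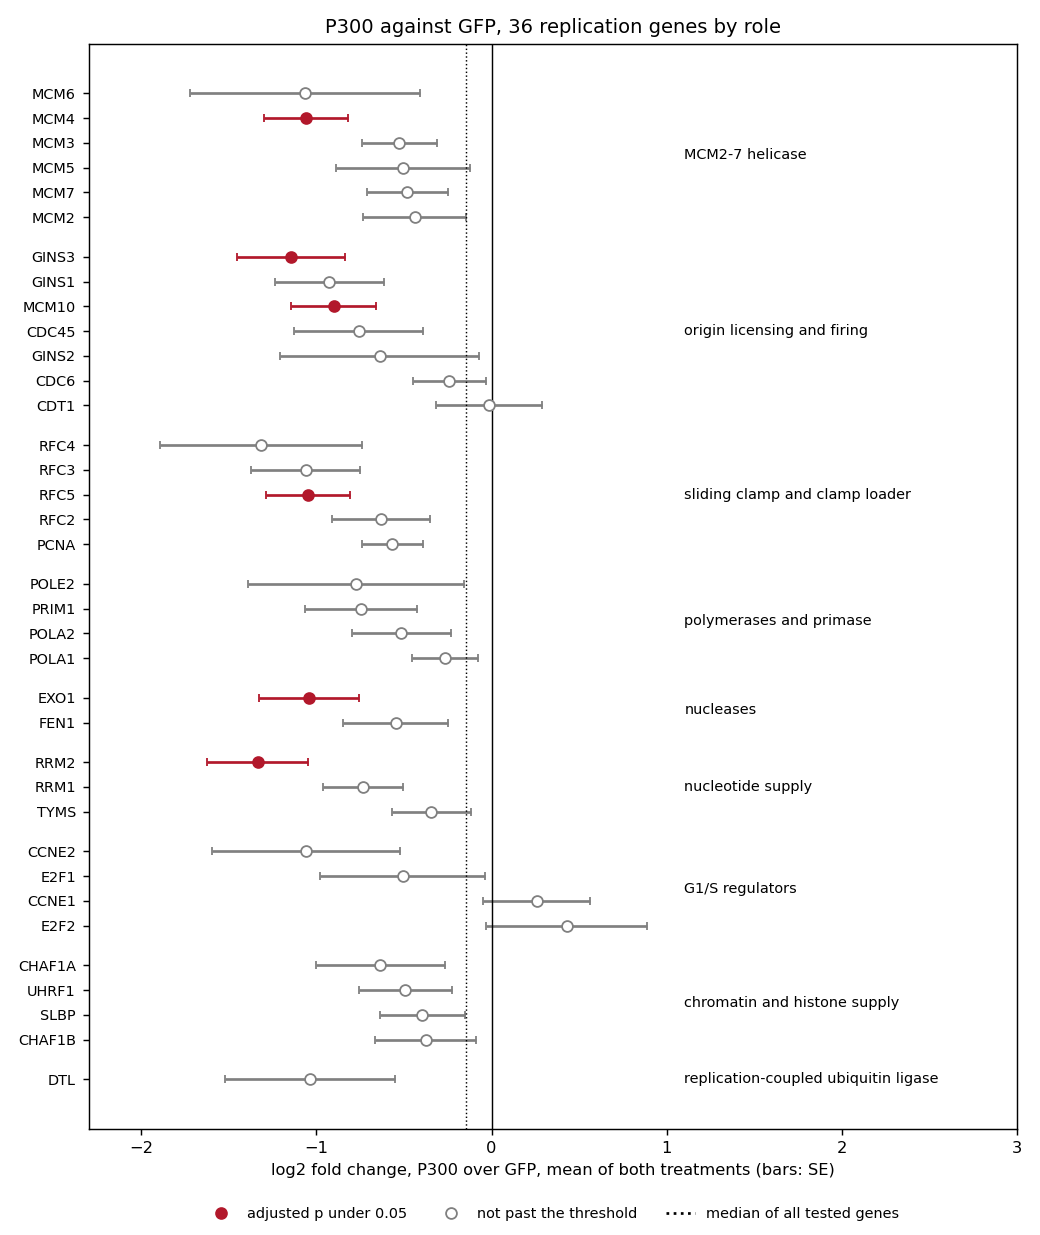
Log2 fold change of P300 over GFP over both treatments for each of the 36 genes, grouped by role, with the standard error as bars. Filled red points passed an adjusted p of 0.05, and the dotted line is the median of all tested genes, -0.15; 34 of 36 points lie left of 0.

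Of the helicase subunits, MCM4 fell and the other 5 did not pass the test. MCM4 had 115 and 161 CPM in P300 Dex libraries and 112 and 58.1 CPM in P300 EtOH libraries. It had 237, 214 and 293 CPM in GFP Dex libraries and 189, 174 and 256 CPM in GFP EtOH libraries. The highest P300 library was below the lowest GFP library, and the log2 fold change was -1.06 (SE 0.24, adjusted p = 0.0253). MCM3 had 92.0 and 161 CPM in P300 Dex libraries and 84.5 and 116 CPM in P300 EtOH libraries, against 154, 161 and 195 CPM in GFP Dex libraries and 139.8, 159 and 166 CPM in GFP EtOH libraries. The groups overlapped through P300 Dex replicate 2 (log2 fold change -0.53, SE 0.21, adjusted p = 0.128). MCM2, MCM5, MCM6 and MCM7 had log2 fold changes of -0.44, -0.51, -1.07 and -0.48. MCM5 ranged from 38.7 to 166 CPM over the P300 libraries, which spans the 86.0 to 146 CPM of the GFP libraries. All 6 log2 fold changes of the helicase were negative.

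Of the 7 genes of origin licensing and firing, MCM10 and GINS3 fell. MCM10, which is needed to activate the loaded helicase, had 30.5 and 34.6 CPM in P300 Dex libraries and 31.5 and 15.7 CPM in P300 EtOH libraries. In GFP Dex libraries it had 45.3, 60.2 and 62.9 CPM and in GFP EtOH libraries 45.5, 50.9 and 49.2 CPM. The groups did not overlap, and the log2 fold change was -0.90 (SE 0.24, adjusted p = 0.0414). GINS3, a subunit of the GINS complex, had 9.05 and 8.89 CPM in P300 Dex libraries and 13.6 and 4.92 CPM in P300 EtOH libraries, against 22.4, 19.1 and 24.7 CPM in GFP Dex libraries and 20.4, 17.6 and 19.6 CPM in GFP EtOH libraries. Every P300 library was below every GFP library (log2 fold change -1.14, SE 0.31, adjusted p = 0.0414). GINS1, of the same complex, had 35 and 49.4 CPM in P300 Dex libraries and 42.0 and 12.5 CPM in P300 EtOH libraries, and 50.8 to 80.4 CPM in GFP libraries. It did not overlap between P300 and GFP either, but did not pass the test (log2 fold change -0.93, SE 0.31, adjusted p = 0.0773). CDC45 and GINS2 had log2 fold changes of -0.76 and -0.64. CDC6 and CDT1, which load the helicase in G1, were nearest to 0, at -0.24 (SE 0.21) and -0.01 (SE 0.30). CDT1 had 22.1 and 60.5 CPM in P300 Dex libraries and 22.3 and 34.0 CPM in P300 EtOH libraries, against 27.5 to 44.2 CPM in GFP libraries.

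The sliding clamp and its loader had the lowest median of the roles with more than 2 genes, -1.05, and 1 of the 5 genes passed the test. RFC5, a small subunit of the loader, had 14.0 and 18.1 CPM in P300 Dex libraries and 14.1 and 12.1 CPM in P300 EtOH libraries. It had 29, 30.2 and 38.2 CPM in GFP Dex libraries and 25.6, 25.2 and 32.7 CPM in GFP EtOH libraries. No P300 library came near the GFP range, and the log2 fold change was -1.05 (SE 0.24, adjusted p = 0.0254). RFC3 had 11.6 and 12.1 CPM in P300 Dex libraries and 14.4 and 11.6 CPM in P300 EtOH libraries, against 30.4, 19.8 and 41.7 CPM in GFP Dex libraries and 24, 14.1 and 28.4 CPM in GFP EtOH libraries. The GFP libraries of replicate 2 were the lowest of their groups, and the GFP EtOH one overlapped with P300 (log2 fold change -1.06, SE 0.31, adjusted p = 0.0507). PCNA, the clamp itself, had 114 and 159 CPM in P300 Dex libraries and 112 and 131 CPM in P300 EtOH libraries, against 219, 202 and 215 CPM in GFP Dex libraries and 181, 163 and 173 CPM in GFP EtOH libraries. The groups were separate, by a small gap, and the difference was not past the threshold (log2 fold change -0.57, SE 0.17, adjusted p = 0.0603). RFC2 and RFC4 had log2 fold changes of -0.63 and -1.31 and did not pass. PCNA had the highest level per length of the 35 genes with a known exon length, 130.6 CPM per kb of exon in GFP cells, and CCNE2 the lowest, 1.23 CPM per kb.

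None of the 4 polymerase and primase genes passed the test, and their log2 fold changes ran from -0.77 to -0.26. PRIM1, the catalytic primase subunit, had 12.6 and 6.40 CPM in P300 Dex libraries and 7.65 and 11.6 CPM in P300 EtOH libraries. It had 16.6, 15 and 18.9 CPM in GFP Dex libraries and 15.3, 10.8 and 19.2 CPM in GFP EtOH libraries. A single GFP library, EtOH replicate 2, lay among the P300 values (log2 fold change -0.75, SE 0.32, adjusted p = 0.146). Of the nucleases, EXO1, which resects DNA ends and acts in mismatch repair, fell and FEN1, which trims Okazaki fragments, did not pass (log2 fold change -0.55, SE 0.30, adjusted p = 0.247). EXO1 had 16.2 and 23.9 CPM in P300 Dex libraries and 10.5 and 4.92 CPM in P300 EtOH libraries, against 23.8, 28 and 29.7 CPM in GFP Dex libraries and 22, 29.5 and 24.1 CPM in GFP EtOH libraries. P300 Dex replicate 2 overlapped with the lower GFP libraries, and the log2 fold change was -1.04 (SE 0.28, adjusted p = 0.0417).

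Among the 3 genes of nucleotide supply, RRM2 fell and the other two did not pass the test. RRM2 is the small subunit of ribonucleotide reductase, made in S phase, and RRM1 is the large subunit, which is more stable through the cycle. RRM2 had 97.8 and 116 CPM in P300 Dex libraries and 82.2 and 25.0 CPM in P300 EtOH libraries. It had 217, 199 and 244 CPM in GFP Dex libraries and 162, 163 and 179 CPM in GFP EtOH libraries. P300 libraries were all below the GFP libraries, and the log2 fold change was -1.34 (SE 0.29, adjusted p = 0.0219). RRM1 had 39.6 and 48.6 CPM in P300 Dex libraries and 45.7 and 41.6 CPM in P300 EtOH libraries, against 79.1, 67.1 and 98.7 CPM in GFP Dex libraries and 69.9, 45.6 and 79.8 CPM in GFP EtOH libraries. GFP EtOH replicate 2 was the only GFP library within the range of P300 libraries (log2 fold change -0.73, SE 0.23, adjusted p = 0.0624). TYMS, thymidylate synthase, had a log2 fold change of -0.34 (SE 0.23, adjusted p = 0.33).

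The regulators of the G1/S transition did not follow a single direction, and none of the 4 passed. CCNE1, which encodes cyclin E1, had 37.9 and 29.7 CPM in P300 Dex libraries and 49.5 and 15.7 CPM in P300 EtOH libraries, against 26.0, 31.9 and 28.6 CPM in GFP Dex libraries and 21.9, 33.3 and 26.2 CPM in GFP EtOH libraries. The P300 libraries of replicate 1 were above all GFP libraries and P300 EtOH replicate 2 was below them all, and the log2 fold change of 0.26 (SE 0.31, adjusted p = 0.606) turned to -0.31 without P300 EtOH replicate 1. CCNE2, which encodes cyclin E2, was at -1.06 (SE 0.54, adjusted p = 0.212). E2F1 and E2F2, activators of the programme, were at -0.51 (SE 0.47) and 0.43 (SE 0.46). E2F1 ranged from 5.37 CPM in P300 Dex replicate 1 to 44.8 CPM in P300 Dex replicate 2, the widest gap between replicates of the P300 Dex group, with 3.02 on the log2 scale between them.

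The 4 genes of chromatin and histone supply had log2 fold changes of -0.64 to -0.38 and did not pass. CHAF1A, the large subunit of the CAF-1 histone chaperone, had 29.98 and 139.7 CPM in P300 Dex libraries and 37.8 and 55.9 CPM in P300 EtOH libraries, against 80.1, 117 and 99.1 CPM in GFP Dex libraries and 80.6, 123 and 85.9 CPM in GFP EtOH libraries. The first P300 Dex library was the lowest of all 10 and the second the highest (log2 fold change -0.64, SE 0.37, adjusted p = 0.273). CHAF1B, UHRF1, which brings maintenance DNA methylation to new strands, and SLBP, which binds histone mRNA, were at -0.38, -0.49 and -0.40. DTL, the substrate receptor of the ligase that destroys CDT1 on loaded PCNA, had 18.9 and 21.5 CPM in P300 Dex libraries and 24.2 and 1.34 CPM in P300 EtOH libraries, against 32.7, 34.2 and 44.5 CPM in GFP Dex libraries and 29, 30.4 and 34.1 CPM in GFP EtOH libraries. The groups did not overlap, and DTL did not pass the test (log2 fold change -1.04, SE 0.48, adjusted p = 0.179 in edgeR).

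**Figure D3:**
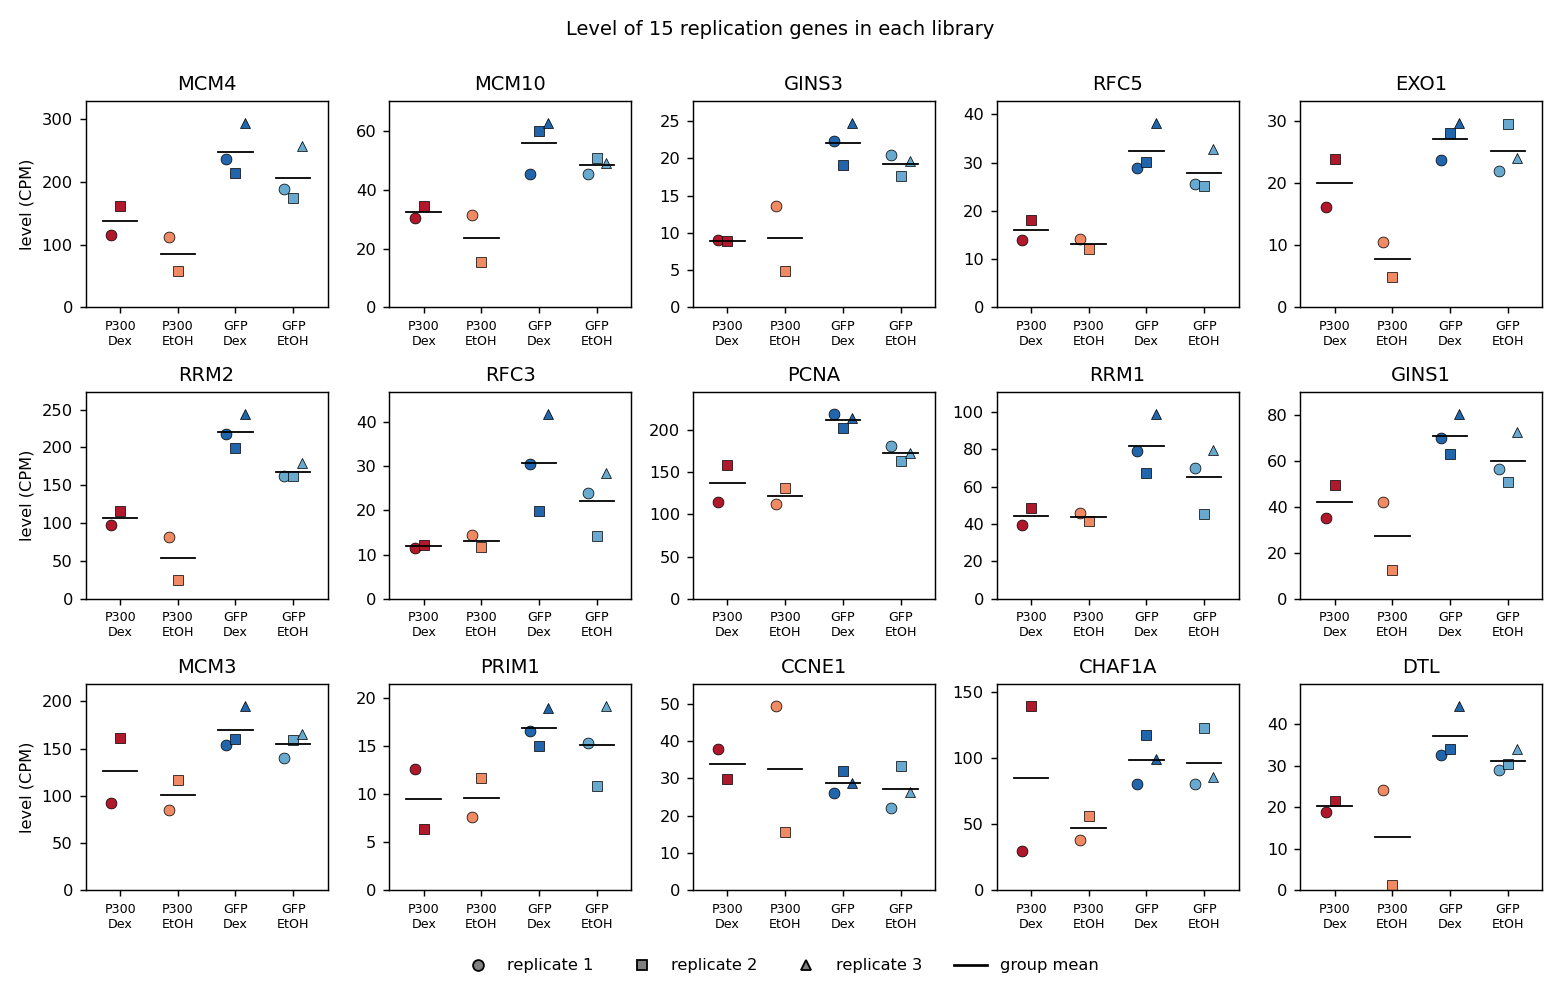
Level (CPM) of the 6 genes that passed the test and 9 more in each library, with P300 Dex, P300 EtOH, GFP Dex and GFP EtOH from left to right; symbols give the replicate number and lines the group means. RRM2, RFC5, GINS3 and MCM4 show P300 libraries below all GFP libraries, and CHAF1A and CCNE1 show replicates of P300 cells on both sides of the GFP values.

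The genes with an E2F match were not lower than the rest. The median log2 fold change was -0.52 for the 20 with a match and -0.73 for the 13 without. It was -0.69 for the 18 with a CCAAT box and -0.51 for the 15 without, and -1.04 for the 4 with a cAMP response element (MCM10, RFC3, EXO1 and DTL) and -0.55 for the 29 without. These medians have no test, and the windows were searched with the fold changes known.

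Within each treatment, no member passed the test. In Dex, 31 of the 36 had a negative log2 fold change of P300 over GFP, with a median of -0.43 against 0.00 for all tested genes. An unadjusted p under 0.05 in edgeR was found for 9 (25%). This compares with 12.7% of all tested genes and 9.31% of those at the members' levels in GFP cells. Of all tested genes 0.0103% passed. In EtOH, 33 were negative, with a median of -0.78 against -0.18, and 8 had an unadjusted p under 0.05 in edgeR (22.2%). This compares with 25.9% of all tested genes and 19.4% of those at the members' levels. Of all tested genes 2.78% passed, 1.19% as lower. DESeq2 called 1 of the 36 lower in Dex (2.78%) and 4 lower in EtOH (11.1%), against 0.691% and 5.75% of the genes with an adjusted p called lower and 3.75% and 13.2% called in either direction, and limma-voom with library quality weights called 0 in both. In EtOH, 13 members were lower when P300 EtOH replicate 1 was omitted, which leaves the shallow library as the only P300 EtOH sample, 6 when Dex 1 of P300 was omitted and 4 when Dex 2 of P300 was. The share of all tested genes called lower moved with them, at 12.7%, 5.91% and 5.4% in these fits. The most negative values in Dex were those of RFC3 (log2 fold change -1.37), GINS3 (-1.30) and RFC4 (-1.08), and in EtOH those of CCNE2 (-1.71), EXO1 (-1.65) and RRM2 (-1.63). No member passed the test of the difference between the treatments, and 1 of the 36 (2.78%) had an unadjusted p under 0.05 in it. The shares were 8.73% of all tested genes and 4.32% of those at the members' levels.

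Between libraries of the same replicate number, P300 was lower than GFP for 32 of the 36 genes in Dex replicate 1 (median log2 difference -0.72), 23 in Dex replicate 2 (-0.29), 31 in EtOH replicate 1 (-0.55) and 32 in EtOH replicate 2 (-1.18). Over all tested genes 56.9%, 51.2%, 57.4% and 65% were lower in these pairs. For 18 of the 36 (50%) the difference was negative in all 4 pairs, against 18.1% of all tested genes. In the Dex pair of replicate 2 the members divided by base composition. CDT1, E2F1, E2F2 and MCM5, with a GC content of 57.0% to 64.9% in their longest transcript, were higher in P300 there, at log2 differences of 0.95, 0.65, 0.62 and 0.47. PRIM1, GINS3 and POLE2, with 40.7% to 43.7%, were at -1.20, -1.09 and -0.99. The correlation of difference and GC content over the 35 genes with a known value was 0.80 in this pair, against 0.506 over 18863 tested genes, and it was 0.015 in Dex replicate 1, 0.13 in EtOH replicate 1 and 0.33 in EtOH replicate 2. Genes share the libraries of a pair, so these are descriptions. The GFP EtOH library of replicate 2 differed along GC content from that of replicate 1 as well (r = 0.73 over the members, 0.543 over 18863 tested genes). Ribosomal RNA genes held 5.32% and 4.24% of the GFP Dex and GFP EtOH libraries of replicate 2, against 0.493% to 0.813% of the other GFP libraries. The P300 Dex and P300 EtOH libraries held 0.933% and 2.05% in replicate 2, and 0.859% and 1.02% in replicate 1. With offsets that level GC content within each library, MCM4, GINS3 and RRM2 passed (3.39% of all tested genes lower), and with these and the replicate block RRM2 alone passed (0.832%). The part of base composition in the differences was not tested beyond this.

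**Figure D4:**
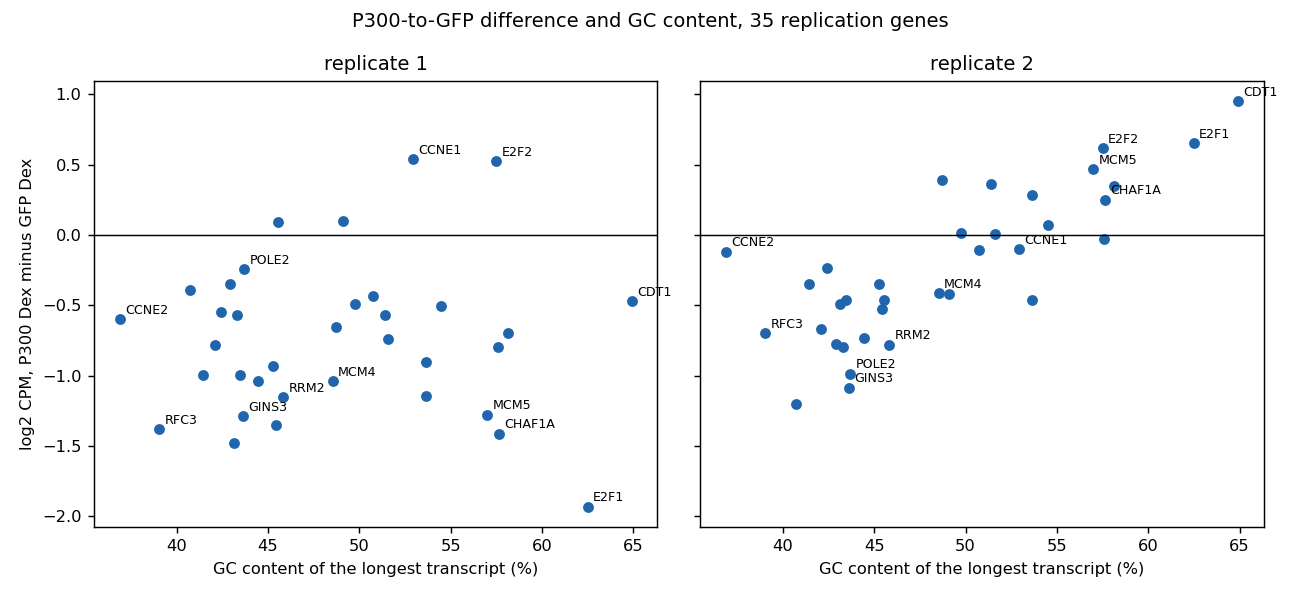
Log2 CPM difference of P300 Dex minus GFP Dex against GC content (percent of the longest transcript) for 35 of the 36 genes, in replicate 1 (left) and replicate 2 (right); each point is a gene and the line is 0. In replicate 2 the points climb with GC content (r = 0.80) and in replicate 1 they do not (r = 0.015).

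After 1 h of Dex, no member passed the test in either kind of cell. In GFP cells 31 of the 36 had a positive log2 fold change of Dex over EtOH, with a median of 0.14 against 0.00 for all tested genes, and the largest were CCNE2 (0.57), RFC3 (0.47) and RRM2 (0.39). No gene of the 19433 passed in edgeR (0%), 113 (0.581%) had an unadjusted p under 0.05 and none of them was a member, while DESeq2 called 5 genes and voom with quality weights 89, none a member. PCNA, RRM2 and CCNE2 had all 3 Dex libraries above all 3 EtOH libraries (8.33% of the members, against 4.03% of all tested genes). Dex was higher than EtOH for 30 of the 36 in replicate 1, 22 in replicate 2 and 35 in replicate 3, with medians of 0.15, 0.09 and 0.20, and 53%, 49.8% and 50.9% of all tested genes were higher in these pairs. The difference in replicate 2 ran against GC content (r = -0.74 over the members, -0.454 over 18863 tested genes). In replicate 3 these values were -0.525 and -0.0837, and in replicate 1 -0.222 and -0.0369. A fit of the 6 GFP libraries blocked by number called 277 of the tested genes and no member, and 10 members (27.8%) had an unadjusted p under 0.05, against 15.4% of the genes in that fit.

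In P300 cells 31 of the 36 had a positive log2 fold change of Dex over EtOH, with a median of 0.37 against 0.13 for all tested genes. None passed in edgeR, where 0% of all tested genes did, and 4 had an unadjusted p under 0.05 (11.1%). This compares with 13.2% of all tested genes and 8.37% of those at the members' levels in GFP cells. None passed in voom with quality weights, nor in DESeq2, which called 2.91% of the genes with an adjusted p. The pairs of libraries differed in direction. In replicate 1 the level in Dex was higher for 12 and lower for 24 (median -0.08), and in replicate 2 it was higher for 32 (median 1.03), where EtOH is the shallow library; 52.1% and 61.8% of all tested genes were higher in these pairs. Without P300 EtOH replicate 1, which leaves that shallow library as the only P300 EtOH sample, 10 members were higher in Dex, against 8.48% of all tested genes, and 6 passed the test of the difference between the Dex effects of P300 and GFP cells with a positive value, against 5.59% of all tested genes. With all libraries no member passed that test (1 had an unadjusted p under 0.05), and 0% of all tested genes did. Between treatments the level of RRM2 was 97.8 CPM in P300 Dex and 82.2 CPM in P300 EtOH libraries of replicate 1, and 116 and 25.0 CPM in those of replicate 2.

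**Figure D5:**
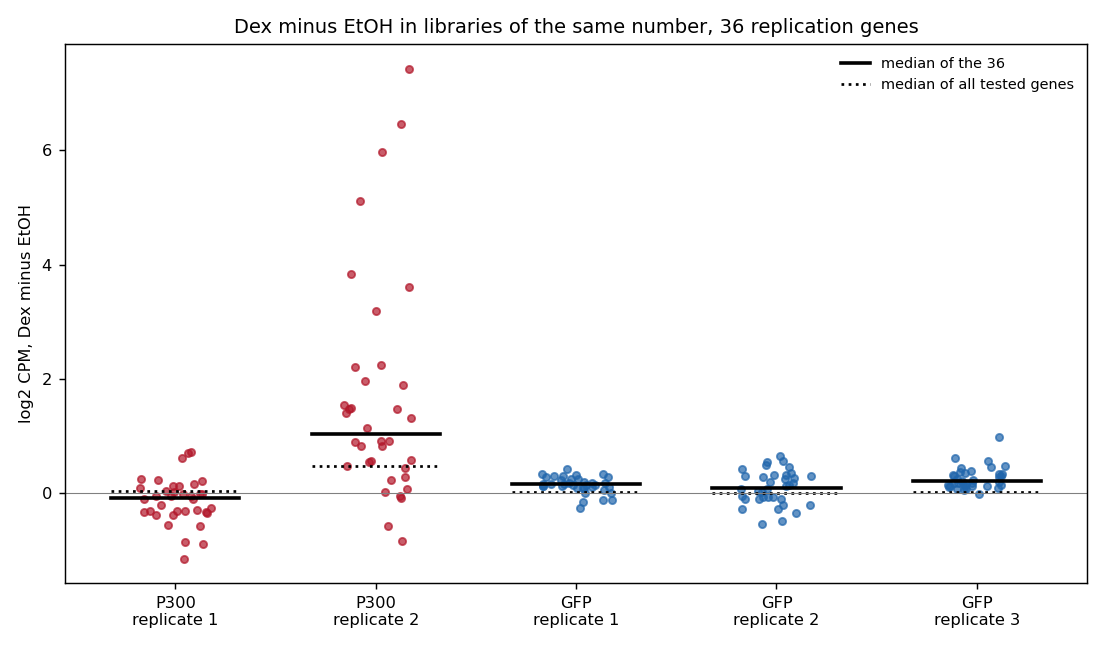
Log2 CPM difference of Dex minus EtOH between libraries of the same number for the 36 genes, in 2 pairs of P300 libraries (red) and 3 pairs of GFP libraries (blue); points are genes, solid bars the median of the 36 and dotted bars that of all tested genes. Medians of the 36 are -0.08 and 1.03 for P300, and 0.15, 0.09 and 0.20 for GFP.

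Other genes of the cell cycle were counted from lists chosen with earlier results of these data known, and are set against 4.17% lower and 6.33% higher among all tested genes. Of 42 further replication and repair genes, 6 (14.3%) fell in P300 cells over both treatments and none rose, with a median log2 fold change of -0.66. CLSPN, the checkpoint mediator claspin, averaged 57.4 ± 17.6 CPM in P300 cells (SD, n = 4) and 116 ± 16.4 CPM in GFP cells (SD, n = 6), at a log2 fold change of -1.02 (adjusted p = 0.0243). GMNN, which encodes the CDT1 inhibitor geminin, averaged 9.33 ± 2.68 CPM in P300 cells and 20.4 ± 5.14 CPM in GFP cells (log2 fold change -1.14, adjusted p = 0.0275). BRCA1 and BRCA2, of recombination repair, fell by 1.07 and 1.21 on the log2 scale. Of 30 genes of G2 and M phase, 13 (43.3%) fell and none rose, with a median of -1.07, against -0.63 for the 36 replication genes. AURKA, a mitotic kinase, averaged 10.8 ± 8.05 CPM in P300 cells and 44.6 ± 9.32 CPM in GFP cells (log2 fold change -2.07, adjusted p = 0.0149), and TOP2A, BUB1 and CCNB1 fell by 1.14, 1.56 and 1.20. Of 22 tested genes of G1 control, 2 were called higher (9.09%) and 1 lower (4.55%), shares near those of all tested genes. CDKN1C, an inhibitor of cyclin-dependent kinases, had 27.1 and 20.5 CPM in P300 Dex libraries and 12.1 and 16.1 CPM in P300 EtOH libraries, against 0.841 to 5.78 CPM in GFP libraries (log2 fold change 3.02, SE 0.38, adjusted p = 0.00272). CCND2, a D-type cyclin with 0 to 10.2 CPM in P300 libraries and 0 to 0.306 CPM in GFP libraries, was called higher (adjusted p = 0.0164). It could pass the expression filter only through P300 libraries, so this call is not evidence of a rise. TFDP2, a partner of E2F proteins, fell (log2 fold change -1.45, adjusted p = 0.0426). CDKN1A, the inhibitor p21, averaged 171 ± 27.9 CPM in P300 cells and 140.5 ± 24.8 CPM in GFP cells, and CCND1 543 ± 191.6 CPM in P300 cells and 585 ± 108 CPM in GFP cells. Neither passed the test (adjusted p = 0.377 and 0.81). Of 13 mitochondrially encoded genes, 2 (15.4%) rose (MT-ATP6 and MT-ND3), and of 10 epithelial markers EPCAM rose (10%) and NQO1 fell (10%).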

How the data were processed

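The 10 libraries were compared as deposited raw counts per gene, whole numbers per the file headers. The authors' 10 columns of normalized counts were not used. Per the submitters' processing notes, cutadapt, STAR 2.4.2a, HTSeq 0.6.1p1 and DESeq2 1.10.1 were used, with build GRCh37. Annotation and strandedness of the counting are not stated in those sources, so reads of overlapping, antisense or near-identical genes cannot be told apart. The labels' protocols name both a stranded total RNA kit and a poly(A) kit without saying which was used. The labels do not say whether replicates are separate cultures; the p-values thus cover only the variation among these samples, which may be technical.

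All tests are two-sided. The main test was edgeR 4.0.16's quasi-likelihood test (R 4.3.3) with TMM factors, edgeR's own filter on expression and no term besides group. A standard error is the absolute log2 fold change divided by the root of F, and log2 CPM use a prior count of 2. Levels are CPM on the TMM-scaled library size, and shares of counts have exact 95% intervals that leave out all but counting error, as these reads carry no molecular identifiers and are not independent molecules. The 36 genes, the 6 other lists and the tests were chosen with earlier results of these data known. Values in every library are given for members called in any of 6 contrasts, for those with the smallest p up to 12 in all, and for the most abundant member of each role left; of other lists up to 4 called genes, CDKN1A, CDKN1C and CCND1 are named, and other names were chosen after their values were seen. GC content and exon length came from GENCODE 29 by gene identifier (18863 tested genes, 35 members, UHRF1 unmatched). No 2 libraries of a group agreed within sampling noise (chi-square per degree of freedom 9.47 to 267). Deviations from group means correlated at r = 0.113 to 0.601 in all 13 same-number pairs, against -0.484 to 0.240 in 24 pairs of different numbers. Such deviations cancel out within a group, and in P300 groups the libraries mirror each other. The pairs are therefore not separate observations, negative values are partly forced, and pairing by number is not established by them. Alternatives were the block, DESeq2 1.42.0, RLE factors or none, no filter or 5 CPM in 2 libraries, EP300, mitochondrial and ribosomal RNA genes removed, subsets of libraries and each library left out; those chosen after seeing the data were blocked fits of only the groups compared, voom quality weights (limma 3.58.1), offsets in 20 bins of GC content, and leaving out a replicate number. The steps were tested on simulated counts in which P300 and GFP libraries had the same spread. The simulation therefore does not show the error rate under the unequal spread found here.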

Additional observations from a re-analysis of the deposited data

How the results depend on the processing

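P300 was below GFP in the summed share of the 36 genes, with a difference of -0.0794 percentage points, and -0.109 to -0.0681 in the settings tried (leaving out 1 library: -0.099 to -0.0681). The count of members called over both treatments, 6, was 9 with DESeq2 and 7 without a filter on low counts. It was 3 with the replicate block on all 10 libraries, with RLE factors, with at least 5 CPM in 2 libraries, with EP300, mitochondrial and ribosomal RNA genes removed and with GC offsets. It was 10 with library sizes alone, 1 with voom quality weights, 1 with GC offsets and the block, 0 with replicates 1 and 2 only, and 0 to 20 with 1 library left out (14 without replicate 1 and 29 without replicate 2 in all groups, where the lone P300 library of each treatment is assumed to vary like the GFP groups). Of the 29, 28 were lower and CCNE1 was higher; every other call was lower. The share of all tested genes called moved too: without replicate 2 in all groups 31.5% were lower and 24.6% higher, and without replicate 1 12.6% were lower. In the other settings named it was 0% to 9.25% lower, against 4.17%, and 0.171% to 15.3% with 1 library left out. RRM2 passed in 17 of 23 alternatives, MCM4 in 15, RFC5 in 13, GINS3 in 9 and MCM10 and EXO1 in 8 each. In EtOH the count of 0 was 4 with DESeq2, 3 with library sizes alone (2.13% of all tested genes lower) and 1 without a filter (0.955%). It was 1 with GC offsets (1.97%) and 2 with the replicate block in the groups compared (2%). The count also moved with some P300 libraries left out, as given above. In Dex it was 1 with DESeq2 and 0 with a library left out. For Dex against EtOH it was 0 to 10 in P300 cells and 0 in GFP cells with a library left out, and for the difference of the Dex effect 0 to 6. CCNE1 (0.26) reversed, at -0.31 without P300 EtOH replicate 1 and -0.49 without replicate 1 in all groups, with a range of -0.31 to 0.49 as 1 library was left out. On all 10 libraries, the block changed no other count of members. The cause of these changes was not tested. At the depth of P300 EtOH replicate 2, the floor taken here, 3 counts, corresponds to 1.34 CPM. Genes well above this level in other libraries were also at 0 in it. They made up 3.89% of the genes that averaged at least 10 CPM in GFP libraries.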

Other observations

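The level of the replication genes also differed between GFP libraries of different number. In GFP Dex libraries, replicate 3 was above replicate 1 for 34 of the 36 genes (48.4% of all tested genes), with a median log2 difference of 0.32 against -0.01 for all tested genes. In GFP EtOH libraries it was above for 31 of 36 (49.997% of all tested genes), with a median of 0.25 against 0.00. The median differences of Dex minus EtOH within a number were 0.15, 0.09 and 0.20. RFC3 had 41.7 CPM in GFP Dex replicate 3 and 19.8 CPM in GFP Dex replicate 2, and E2F2 had 25.1 CPM in GFP EtOH replicate 2 and 8.10 CPM in GFP EtOH replicate 1.

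Between the P300 Dex libraries, replicate 2 was above replicate 1 for 28 of the 36 genes (49.6% of all tested genes), with a median log2 difference of 0.52 against 0.00 for all tested genes. The difference correlated with GC content at r = 0.68 over 35 members and 0.323 over 18863 tested genes. EP300 made up 28.8% of counts in replicate 1 and 2.42% in replicate 2. The members with the largest gaps were E2F1 (3.02), CHAF1A (2.21) and MCM5 (2.10), and for PRIM1 and POLE2 the level was lower in replicate 2, at -0.96 and -0.93.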
